A study of Homo sapiens with 28 samples.

Results

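DNA replication and G1/S genes were followed in 2 lung cancer cell lines exposed to azacitidine or decitabine. The group holds 51 genes, chosen by name for their roles in replication or in the step from G1 into S phase, and every probe set annotated to 1 of these symbols alone was taken. They had 73 of the 22277 probe sets, and all 51 passed the filter on low values, among 8024 genes tested in all. A549 is a lung adenocarcinoma line with intact p53, and H1299 is a non-small cell lung carcinoma line that is known to lack p53. Each line received dimethyl sulfoxide (the vehicle) or azacitidine or decitabine at 0.3, 1 or 3 µM, with drug renewed every 24 h, which made 14 groups of 2 arrays (28 in all). The drug groups are labelled 48 h, and the labels give the vehicle groups no time. Both drugs are cytidine analogs carrying a nitrogen in the base ring. Azacitidine is a ribonucleoside that enters RNA as well as DNA, and decitabine is the corresponding deoxyribonucleoside. The design asks how the 2 drugs compare over this dose range. Nothing in the labels says that the 2 arrays of a group came from separate cultures, so each p measures the spread between these samples only.

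Replication is prepared in G1, when the origin recognition complex (ORC), CDC6 and CDT1 load the MCM2-7 helicase onto DNA, a step called licensing. In S phase the kinase CDC7-DBF4 and the cyclin E kinase turn the loaded helicase into an active one with CDC45 and the GINS complex, and the sliding clamp PCNA, its loader RFC, the polymerases, RPA, FEN1 and DNA ligase copy and join the strands. E2F transcription factors, held back by the retinoblastoma protein until cyclin D and cyclin E kinases act, drive most of these genes, and E2F8 is a repressor that later limits them. Decitabine and azacitidine act on DNA methyltransferases only once they are built into DNA, so cells must replicate to respond in that way.

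Values are signal, the linear intensity of a probe set, in the order of the 2 arrays of a group. Differences are log2 differences of signal + 32, with their standard error (SE), and a gene is called where the adjusted p (Benjamini-Hochberg over all genes tested, limma) was below 0.05. Signals of different genes come from different probes and were not compared. These are bulk RNA samples, in which fewer cells in S phase and less RNA per cell cannot be told apart. The lines carried the markers of their label only in part: 5 of 5 epithelial markers lay above the array median in most A549 arrays, and 2 of 5 (KRT8 and KRT18) in H1299. Of the other cell types, 1 of 4 fibroblast markers (COL1A1) and no leukocyte or endothelial marker did so in either line. CDKN2A, deleted in A549, read 33.6 to 106 there and 745 to 1660 in H1299.

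At 0.3 µM few members passed the test. With azacitidine at that dose 0 were called lower and 2 higher in A549, where 1.27% of all genes were called lower and 1.17% higher. In H1299 2 were called lower and 0 higher, against 3.22% and 2.46% of all genes. At an unadjusted p below 0.05 in the same limma fit, 12 members passed in A549 and 8 in H1299, in either direction. The share of all genes at that unadjusted threshold was not counted, so these counts cannot be read against it. Decitabine at 0.3 µM had 5 lower and 2 higher in A549 (all genes 3.38% and 4.31%). In H1299 it had 7 lower and 1 higher (all genes 8.9% and 8.9%). These small counts moved with single arrays: the 2 calls of azacitidine in A549 became 0 without vehicle replicate 1, the 7 of decitabine in A549 became 2 without the same array, and the 8 of decitabine in H1299 became 3 without vehicle replicate 2.

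At 1 µM the members moved mostly down in 3 of the 4 comparisons. Azacitidine in H1299 had 30 lower and 2 higher (all genes 15.4% and 19.9%). Decitabine had 25 lower and 3 higher in A549 (all genes 6.79% and 9.78%) and 16 lower and 1 higher in H1299 (all genes 11.6% and 11.8%). Azacitidine in A549 stood apart from these with 10 lower and 7 higher, or 19.6% and 13.7% of the members, near the 12.1% and 13.1% of all genes. That last split rested on the scaling: with each array centred on its median log2 value, which raised the median of all genes by 0.13 in that comparison, 4 were lower and 11 higher. Its count of 17 fell to 10 without azacitidine replicate 2, and the 17 of decitabine in H1299 to 11 without vehicle replicate 1 or 12 without decitabine replicate 2.

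At 3 µM the order was alike. Azacitidine in H1299 had 31 members lower and 4 higher, or 60.8% and 7.84% (all genes 21.6% and 32.3%). Decitabine in A549 had 29 lower and 3 higher, or 56.9% and 5.88% (all genes 10.8% and 15%), and decitabine in H1299 had 20 lower and 2 higher, or 39.2% and 3.92% (all genes 14.6% and 16.3%). Azacitidine in A549 had 13 lower and 8 higher, or 25.5% and 15.7% (all genes 16.2% and 22.1%). The median of the members was -0.45 for azacitidine in H1299, -0.39 for decitabine in A549, -0.25 for decitabine in H1299 and -0.096 for azacitidine in A549, where the medians of all genes were 0.079, 0.009, -0.011 and 0.058. All doses of a line share its 2 vehicle arrays, so these comparisons within a line are not independent of each other.

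**Figure D1:**
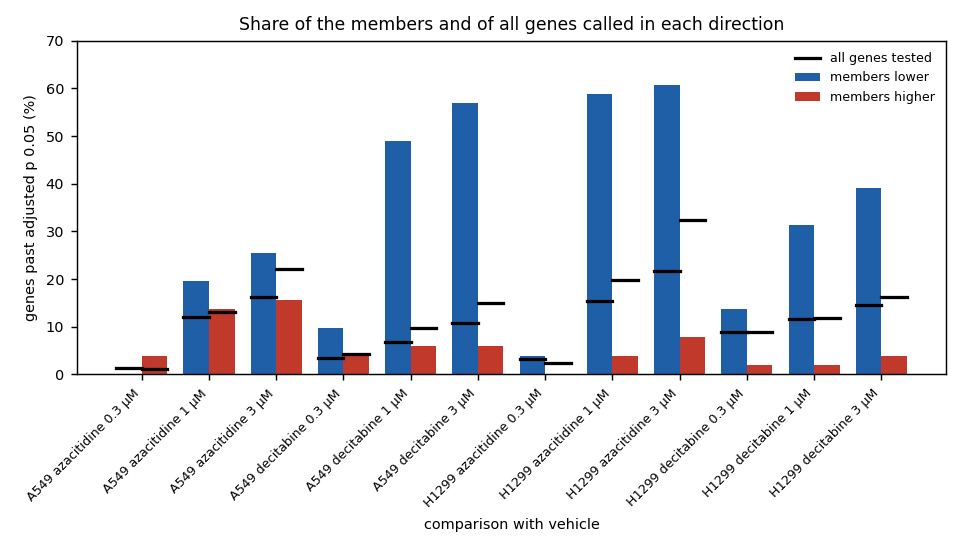
Share of the 51 members called lower (blue bars) and higher (red bars), in percent, in each comparison of a drug and dose with the vehicle of its line. Black lines give the share of all 8024 genes called in the same direction: the blue bars rise to 60.8% for azacitidine 3 µM in H1299 and 56.9% for decitabine 3 µM in A549, against 25.5% for azacitidine 3 µM in A549.

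**Figure D2:**
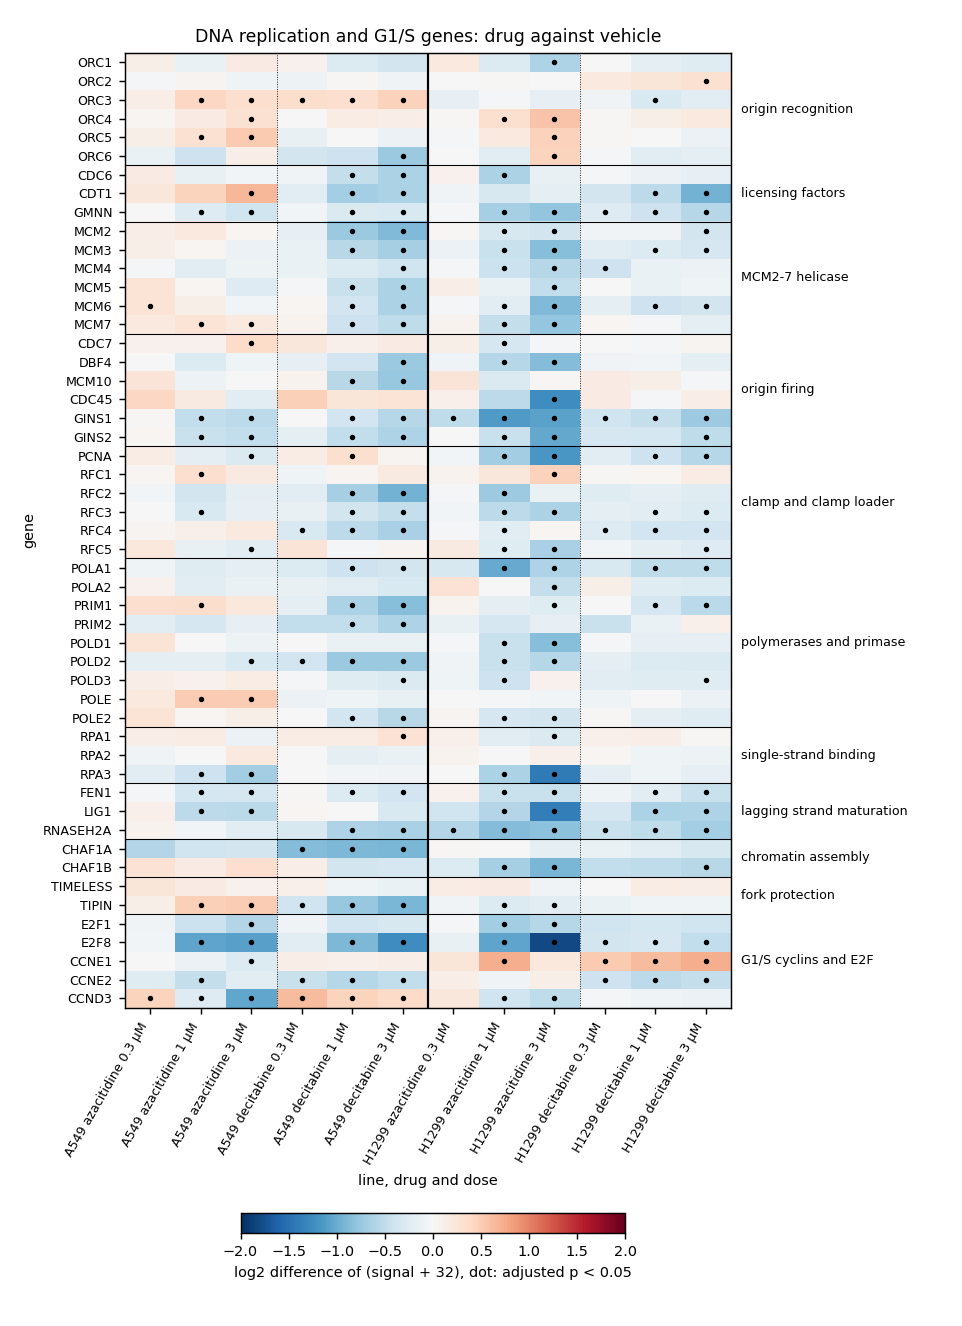
Log2 difference from vehicle (colour, blue lower and red higher) of each of the 51 members (rows, grouped by role) in the 12 comparisons of line, drug and dose (columns), with a dot where the adjusted p was below 0.05. Dots are sparse at 0.3 µM, and at 3 µM the MCM2-7 rows are blue for decitabine in A549 and azacitidine in H1299.

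Both measures of RNA quality averaged higher with azacitidine 3 µM than with vehicle, and in A549 also with decitabine at 1 and 3 µM. The 3'/5' ratio of the ACTB control averaged 3.24 on the A549 vehicle arrays, 5.13 with azacitidine 3 µM and 3.79 with decitabine 3 µM. At 1 µM it averaged 4.47 with azacitidine and 4.25 with decitabine in A549. In H1299 it averaged 5.32 with vehicle, 6.24 with azacitidine 3 µM and 4.6 with decitabine 3 µM. The 2 vehicle arrays of H1299 were far apart, at 4.59 and 6.05, and those with azacitidine 3 µM read 6.28 and 6.21. The 3'/5' ratio of GAPDH averaged 1 with vehicle, 1.08 with azacitidine 3 µM, 1.08 with decitabine 1 µM and 1.06 with decitabine 3 µM in A549. In H1299 it averaged 0.96 with vehicle, 1.08 with azacitidine 1 µM and 1.19 with azacitidine 3 µM, and both arrays of that last group (1.21 and 1.18) lay above every other H1299 array. With the log2 ACTB ratio of each array as a covariate, 17 members were called for azacitidine 3 µM in A549 in place of 21, 30 for decitabine in A549 in place of 32, 33 for azacitidine in H1299 in place of 35, and 22 for decitabine in H1299, as without it. The part of the GAPDH ratio was not tested. One of the decitabine 3 µM arrays of A549, replicate 1, is labelled as a repeat.

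The promoters of 7 genes are shown, all with a match to the letters given below, so they do not stand for the members at large. At 3 µM GINS2 and GMNN were lower with both drugs in both lines, and CDT1 and TIPIN were called in opposite directions with the 2 drugs in A549. MCM6, MCM7 and PCNA belong to the helicase and the clamp. FEN1 was also lower with both drugs in both lines, and CCND3 was also called in opposite directions in A549. Neither FEN1 nor CCND3 had a match in any window, and they are not shown. Each line holds the 160 bases before 1 RefSeq transcript start of the gene, 5' to 3' on the gene's strand, in GRCh38.p14. Only starts with a match in these bases are shown. GMNN, MCM7, PCNA and TIPIN also had other starts whose windows held no match. Capitals mark matches, on either strand, to the letters TTTCCCGC, TTTCGCGC, TTTGCCGC or TTTGGCGC, a core of E2F binding motifs.
GINS2: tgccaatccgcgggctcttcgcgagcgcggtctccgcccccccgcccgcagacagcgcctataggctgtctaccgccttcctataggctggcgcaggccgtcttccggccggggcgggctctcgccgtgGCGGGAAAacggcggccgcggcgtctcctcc
GMNN: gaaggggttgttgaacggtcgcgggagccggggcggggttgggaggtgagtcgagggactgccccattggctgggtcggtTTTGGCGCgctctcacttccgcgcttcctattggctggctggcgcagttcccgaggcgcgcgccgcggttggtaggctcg
MCM6: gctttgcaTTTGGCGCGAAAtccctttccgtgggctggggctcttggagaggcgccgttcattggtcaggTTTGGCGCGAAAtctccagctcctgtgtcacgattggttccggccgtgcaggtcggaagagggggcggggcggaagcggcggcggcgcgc
MCM7: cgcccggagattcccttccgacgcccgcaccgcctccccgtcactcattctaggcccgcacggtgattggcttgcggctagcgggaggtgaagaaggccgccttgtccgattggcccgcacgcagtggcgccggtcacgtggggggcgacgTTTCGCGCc
PCNA: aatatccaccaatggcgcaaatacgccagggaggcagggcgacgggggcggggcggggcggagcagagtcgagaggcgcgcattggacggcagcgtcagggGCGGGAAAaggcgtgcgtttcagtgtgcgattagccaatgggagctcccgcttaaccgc
TIPIN: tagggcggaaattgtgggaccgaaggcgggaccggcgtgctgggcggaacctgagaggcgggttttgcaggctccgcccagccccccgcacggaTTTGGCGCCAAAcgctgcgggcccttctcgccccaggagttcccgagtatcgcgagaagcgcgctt
CDT1: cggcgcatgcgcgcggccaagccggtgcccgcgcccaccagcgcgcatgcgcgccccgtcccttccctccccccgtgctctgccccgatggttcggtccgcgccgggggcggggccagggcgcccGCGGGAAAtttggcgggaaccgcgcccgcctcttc
In MCM6 and TIPIN matches on opposite strands overlap, so that 1 capital run holds 2 of them. The positions are chr16:85688955-85689114 (minus strand) for GINS2, chr6:24775253-24775412 (plus strand) for GMNN, chr2:135876444-135876603 (minus strand) for MCM6, chr7:100101398-100101557 (minus strand) for MCM7, chr20:5126623-5126782 (minus strand) for PCNA, chr15:66356686-66356845 (minus strand) for TIPIN and chr16:88803629-88803788 (plus strand) for CDT1. Over the whole windows of 300 bases (250 before the start and 50 after it), which the table held for 44 of the 51 members, 20 members had such a match in at least 1 window. By window, 20 of 57 (35.1%) held one, against 3.31% of 35116 windows in the table and 4.38% of the 14058 windows of genes on the array. For the MCM2-7 genes 4 of 6 windows held a match, and for the ORC genes 1 of 7. MCM4 and MCM5 had no window and MCM7 had several, so MCM2, MCM3, MCM6 and MCM7 each had a match in at least 1 window. Member windows were richer in G and C, with a mean of 64.8% against 57.5% in the whole table and 61.8% for genes on the array. The letters of the CHR element of G2/M genes (TTTGAA or TTCGAA, both strands) were found in 2 of the 57 member windows (3.51%), in 16.4% of all windows, in 13.2% of those of genes on the array and in 17 of 32 windows (53.1%) of a list of G2/M genes. A match describes letters only, and binding was not measured. MCM4, MCM5, POLD3, RPA2, RPA3, E2F8 and CCNE2 had no entry.

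ORC subunits bind origins and recruit the loading factors. Over the 4 comparisons at 3 µM the 6 genes were called lower 2 times and higher 8 times, and all genes were also called higher more often than lower in each of these comparisons (22.1% and 16.2% with azacitidine in A549, 15% and 10.8% with decitabine there, 32.3% and 21.6% with azacitidine in H1299, 16.3% and 14.6% with decitabine there). ORC5 read 1014 and 1187 on the A549 vehicle arrays and 1495 and 1703 with azacitidine 3 µM, a difference of 0.53 (SE 0.0972, adjusted p = 0.000197). In H1299 the same dose gave 1134 and 1175 against 863 and 795 with vehicle (0.46, SE 0.0972, adjusted p = 0.000381). The treated arrays lay above the vehicle arrays in both lines. Decitabine 3 µM gave ORC5 differences of -0.11 (SE 0.0972, adjusted p = 0.418) in A549 and -0.12 (SE 0.0972, adjusted p = 0.361) in H1299. The other ORC5 probe set was called in A549, higher with azacitidine (0.39, adjusted p = 0.0289) and lower with decitabine (-0.43, adjusted p = 0.0259), and in H1299 it was not called with either drug. ORC4 rose with azacitidine 3 µM in both lines, from 1653 and 1489.6 to 2225 and 2459.6 in H1299 (0.57, SE 0.11, adjusted p = 0.000179) and from 1200.2 and 1366 to 1439.7 and 1751 in A549 (0.3, SE 0.11, adjusted p = 0.0342). A further ORC4 probe set did not pass in either line (adjusted p = 0.165 in H1299 and 0.168 in A549).

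ORC3 rose in A549 with both drugs, from 524 and 492 with vehicle to 628 and 670.4 with azacitidine (0.34, SE 0.0969, adjusted p = 0.00909) and 715 and 705 with decitabine 3 µM (0.46, SE 0.0969, adjusted p = 0.00138). In H1299 it read 1538 and 1734 with vehicle and 1461 and 1342 with decitabine 3 µM (-0.22, SE 0.0969, adjusted p = 0.0966). At 3 µM the treated arrays of A549 were thus all above vehicle and those of H1299 with decitabine both below it. ORC1, the subunit whose level is known to vary most over the cell cycle, fell with azacitidine 3 µM in H1299, from 268 and 239 to 154 and 153 (-0.62, SE 0.139, adjusted p = 0.000699). In A549 it read 222 and 222 with vehicle, 294 and 216 with azacitidine (0.16, SE 0.139, adjusted p = 0.383) and 174 and 159.5 with decitabine (-0.36, SE 0.139, adjusted p = 0.064). With decitabine in H1299 it read 233 and 186 (-0.25, SE 0.139, adjusted p = 0.189). Azacitidine in H1299 was the one comparison of the 4 in which ORC1 was called. ORC6, the smallest subunit, fell with decitabine in A549, from 2629 and 2434 to 1289 and 1749 (-0.74, SE 0.161, adjusted p = 0.00175), and rose with azacitidine in H1299, from 2194 and 1808 to 2964 and 2501 (0.44, SE 0.161, adjusted p = 0.0237). ORC2 was called in 1 of the 4 comparisons at 3 µM, decitabine in H1299, with 642 and 718 against 550.1 and 535 (0.31, SE 0.104, adjusted p = 0.0296). It did not pass when vehicle replicate 1 (adjusted p = 0.082), vehicle replicate 2 (0.124) or decitabine replicate 2 (0.22) was left out.

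Among the licensing factors, CDT1 and its inhibitor geminin (GMNN) gave unlike patterns. CDT1, which brings MCM2-7 to origins, read 166 and 173 on the A549 vehicle arrays. Azacitidine gave 189 and 220.4 at 0.3 µM, 284 and 205 at 1 µM and 286 and 290.5 at 3 µM, and decitabine gave 119 and 164 at 0.3 µM, 112 and 78.7 at 1 µM and 95.5 and 99.4 at 3 µM. All 6 azacitidine arrays of A549 lay above the vehicle arrays and all 6 decitabine arrays below them. The decitabine readings of 78.7, 95.5 and 99.4 also lay below the medians of their arrays (110, 111 and 117), where signal is dim. At 3 µM the differences were 0.67 (SE 0.184, adjusted p = 0.00649) for azacitidine and -0.64 (SE 0.184, adjusted p = 0.014) for decitabine. The azacitidine call was lost with the ACTB ratio as a covariate (0.62, adjusted p = 0.0544). The decitabine call did not pass with vehicle replicate 1 (adjusted p = 0.0525), vehicle replicate 2 (0.0623) or decitabine replicate 1 (0.0782) left out. In H1299 CDT1 started at 417 and 413, read 395 and 330.1 with azacitidine 3 µM (-0.18, SE 0.184, adjusted p = 0.423) and fell to 165 and 238 with decitabine 3 µM (-0.95, SE 0.184, adjusted p = 0.000461).

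GMNN, which binds CDT1 and blocks a second round of licensing, was called lower in all 8 comparisons with vehicle at 1 and 3 µM. In H1299 it read 5646 and 5488 with vehicle, 3176 and 3248 with azacitidine 3 µM (-0.79, SE 0.0786, adjusted p = 3.37e-08) and 3756 and 3728 with decitabine 3 µM (-0.57, SE 0.0786, adjusted p = 1.09e-05). In A549 it read 2868 and 3046 with vehicle, 2164 and 2296 with azacitidine (-0.4, SE 0.0786, adjusted p = 0.000356) and 2504 and 2285 with decitabine (-0.3, SE 0.0786, adjusted p = 0.007). The response to azacitidine was lower in H1299 than in A549 by -0.39 (SE 0.111, adjusted p = 0.0115). The decitabine call in A549 did not pass with vehicle replicate 2 (adjusted p = 0.0607) or decitabine replicate 2 (0.0796) left out. CDC6, the ATPase that closes the loading complex, fell with decitabine 3 µM in A549, from 1079 and 1008 to 583 and 745 (-0.64, SE 0.118, adjusted p = 0.000403). With azacitidine in H1299 CDC6 read 605 and 582 with vehicle, 373 and 366 at 1 µM (-0.64, SE 0.118, adjusted p = 0.000231) and 544 and 516 at 3 µM (-0.15, SE 0.118, adjusted p = 0.285), so the middle dose alone was called. The remaining differences at 3 µM were -0.062 (SE 0.118, adjusted p = 0.723) for azacitidine in A549, with 1059 and 939.5, and -0.16 (SE 0.118, adjusted p = 0.335) for decitabine in H1299, with 484 and 578.

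The MCM2-7 helicase genes split by line and drug. All 6 fell with decitabine 3 µM in A549, with differences of -0.4 to -0.88, and all 6 fell with azacitidine 3 µM in H1299, with differences of -0.36 to -0.88. In these comparisons 10.8% and 21.6% of all genes were called lower. With azacitidine 3 µM in A549 MCM7 was called higher and the others were not called, at 0.035 for MCM2, -0.11 for MCM3, -0.096 for MCM4, -0.26 for MCM5 and -0.052 for MCM6. With decitabine 3 µM in H1299 MCM2, MCM3 and MCM6 fell, where 14.6% of all genes were called lower. MCM2 read 1366 and 1312 with vehicle in A549, where azacitidine gave 1497 and 1452 at 0.3 µM, 1510.2 and 1579 at 1 µM and 1341 and 1404 at 3 µM. Decitabine gave 1187 and 1207 at 0.3 µM, 808 and 775 at 1 µM and 647 and 784 at 3 µM. From 0.3 µM the decitabine arrays lay below both vehicle arrays, and the azacitidine arrays at 0.3 and 1 µM lay above them. At 3 µM the differences were 0.035 (SE 0.0948, adjusted p = 0.813) for azacitidine and -0.88 (SE 0.0948, adjusted p = 9.16e-07) for decitabine.

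In H1299 MCM2 read 2125 and 2017 with vehicle, 1594 and 1624 with azacitidine 3 µM (-0.36, SE 0.0948, adjusted p = 0.00305) and 1606 and 1604 with decitabine 3 µM (-0.36, SE 0.0948, adjusted p = 0.00611). With vehicle replicate 1 left out the decitabine difference was -0.32 (adjusted p = 0.057). MCM6, another subunit of the ring, read 4166 and 4377 with vehicle in A549, 4024 and 4214 with azacitidine 3 µM (-0.052, SE 0.0696, adjusted p = 0.601) and 2711 and 2771 with decitabine 3 µM (-0.63, SE 0.0696, adjusted p = 1.19e-06). At 0.3 µM azacitidine it was called higher there, at 5217 and 5089 (0.27, SE 0.0696, adjusted p = 0.0424). In H1299 MCM6 read 5396 and 5653 with vehicle, and azacitidine gave 5412 and 5507 at 0.3 µM, 4419 and 5047 at 1 µM and 2871 and 3112 at 3 µM. The fall with azacitidine in H1299 was thus largest at the top dose (-0.88, SE 0.0696, adjusted p = 1.09e-09).

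MCM7 read 1594 and 1738 with vehicle in A549, 1847 and 1960.3 with azacitidine 3 µM (0.19, SE 0.0711, adjusted p = 0.0403) and 1175 and 1146 with decitabine 3 µM (-0.51, SE 0.0711, adjusted p = 2.04e-05). Its other probe set gave 0.17 for azacitidine (adjusted p = 0.0611) and -0.54 for decitabine. In H1299 MCM7 fell from 4342 and 4539 to 2678 and 2492 with azacitidine (-0.77, SE 0.0711, adjusted p = 9.86e-09), and with decitabine it read 3836 and 3990.3 (-0.18, SE 0.0711, adjusted p = 0.0583). MCM3 and MCM5 had differences of -0.66 and -0.63 with decitabine in A549 and -0.85 and -0.49 with azacitidine in H1299. MCM4 depended on the probe set read. Its decitabine call in A549 (-0.4, SE 0.135, adjusted p = 0.0349) was not shared by its 3 other probe sets (-0.13, -0.13 and -0.31), while all 4 were called lower with azacitidine in H1299.

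**Figure D3:**
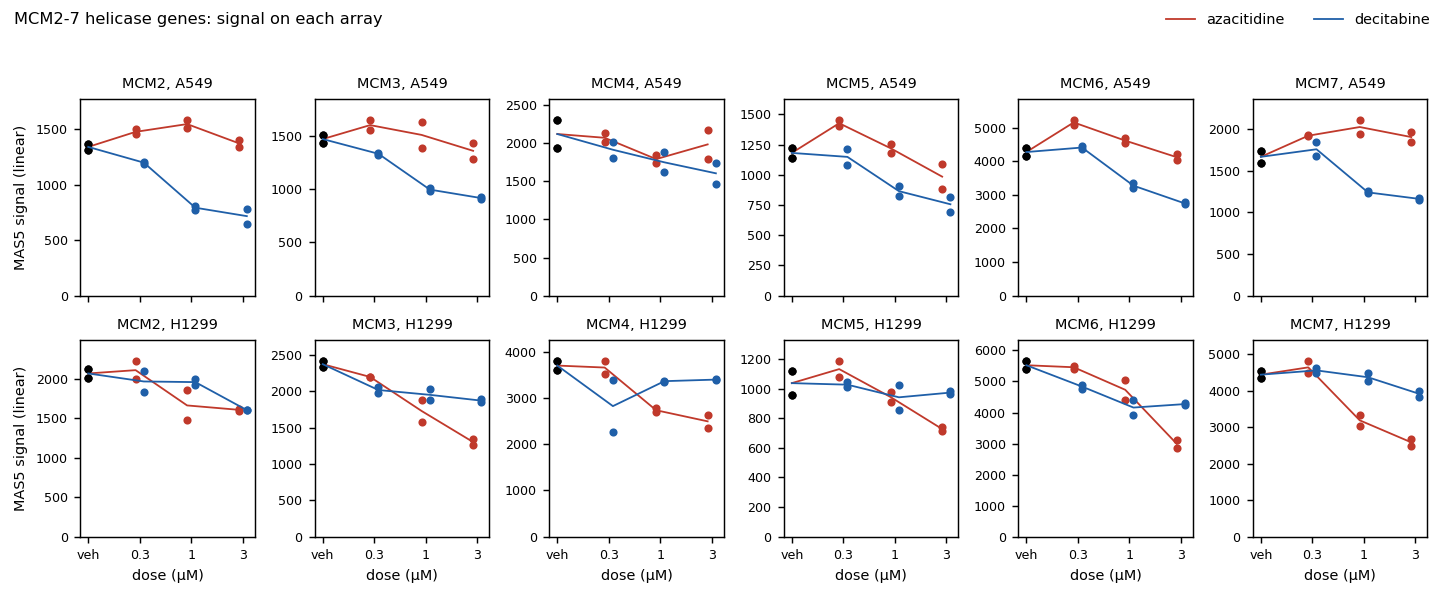
Signal (linear, y axis from 0) of the 6 MCM2-7 genes on each array against dose in µM, with vehicle (black), azacitidine (red) and decitabine (blue), A549 above and H1299 below. Points are single arrays and lines join group means: in A549 the decitabine arrays of MCM2 drop to 647 and 784 while the azacitidine arrays stay at 1341 and 1404, and in H1299 the azacitidine arrays of MCM6 drop to 2871 and 3112.

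The GINS subunits GINS1 and GINS2, parts of the active helicase, fell with both drugs at 3 µM in both lines. GINS1 read 1867 and 1781 with vehicle in H1299. Azacitidine gave 1258 and 1286 at 0.3 µM, 794 and 844 at 1 µM and 794 and 913 at 3 µM, and decitabine gave 1259 and 1491 at 0.3 µM, 1258 and 1336 at 1 µM and 1130.2 and 1048 at 3 µM. Every treated array lay below both vehicle arrays, also at the lowest dose, where GINS1 was 1 of the few members called (-0.51, SE 0.0783, adjusted p = 0.000519 for azacitidine and -0.4, SE 0.0783, adjusted p = 0.000994 for decitabine). At 3 µM the differences in H1299 were -1.07 (SE 0.0783, adjusted p = 3.3e-10) for azacitidine and -0.73 (SE 0.0783, adjusted p = 3.94e-07) for decitabine. In A549 GINS1 went from 3112 and 3020.3 to 2089.9 and 2148 with azacitidine (-0.53, SE 0.0783, adjusted p = 1.83e-05) and to 1998 and 2125 with decitabine (-0.57, SE 0.0783, adjusted p = 1.81e-05). GINS2 went from 1409.9 and 1061 to 662 and 519 with azacitidine in H1299 (-1.02, SE 0.129, adjusted p = 8.62e-07), and its differences were -0.49 and -0.61 with azacitidine and decitabine in A549 and -0.51 with decitabine in H1299.

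CDC45, which completes that active helicase, fell in 1 of the 4 comparisons at 3 µM. It read 504 and 539 with vehicle in H1299, 349 and 362 with azacitidine 1 µM (-0.52, SE 0.218, adjusted p = 0.0724) and 170 and 239.9 with azacitidine 3 µM (-1.24, SE 0.218, adjusted p = 5.78e-05). With decitabine 3 µM it read 633 and 521 (0.13, SE 0.218, adjusted p = 0.688), and these arrays overlapped those of vehicle. Its A549 arrays were spread, with 154 and 272 for vehicle and 119 and 241 for azacitidine 3 µM (-0.23, SE 0.218, adjusted p = 0.444). Decitabine 3 µM gave 251 and 258 there (0.27, SE 0.218, adjusted p = 0.395). DBF4, the activating subunit of the CDC7 kinase, fell from 2197 and 1913 to 1152 and 1259 with decitabine in A549 (-0.75, SE 0.14, adjusted p = 0.000422) and from 4242 and 3911 to 2119 and 2304 with azacitidine in H1299 (-0.87, SE 0.14, adjusted p = 1.91e-05). CDC7, the kinase itself, was called in 1 of the 4 comparisons at 3 µM, higher with azacitidine in A549 (499 and 406 to 619.7 and 567, 0.37, SE 0.109, adjusted p = 0.00981). MCM10, which helps start the helicase, fell with decitabine in A549, from 1038 and 1118 to 596 and 646 (-0.76, SE 0.135, adjusted p = 0.000265), and in H1299 it read 744 and 762 with vehicle and 643 and 840.1 with decitabine (-0.033, SE 0.135, adjusted p = 0.886).

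PCNA, the sliding clamp and a known p53 target, read 5162 and 4674 with vehicle in H1299. Azacitidine gave 4824 and 4605 at 0.3 µM, 2722 and 3345 at 1 µM and 2181 and 2187 at 3 µM there, and decitabine gave 4203 and 4302 at 0.3 µM, 3555 and 3846 at 1 µM and 3168 and 3438 at 3 µM. At 1 and 3 µM both drugs lay below vehicle with no overlap, and azacitidine lay lower. The differences at 3 µM were -1.16 (SE 0.0815, adjusted p = 1.73e-10) for azacitidine and -0.57 (SE 0.0815, adjusted p = 1.74e-05) for decitabine. In A549 PCNA read 7727 and 6956 with vehicle, 8131 and 8179 at 0.3 µM, 6441 and 6332 at 1 µM and 5912 and 6096 at 3 µM with azacitidine and 7803 and 8448 at 0.3 µM, 9294 and 9064 at 1 µM and 7516 and 7697 at 3 µM with decitabine. It was called higher with decitabine 1 µM (0.32, SE 0.0815, adjusted p = 0.00897) and not at 3 µM (0.053, SE 0.0815, adjusted p = 0.673). It was called lower with azacitidine 3 µM (-0.29, SE 0.0815, adjusted p = 0.00809), but this did not pass with vehicle replicate 1 (adjusted p = 0.102) or azacitidine replicate 1 (0.0551) left out.

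The clamp loader RFC opens PCNA and places it on DNA, and its 5 subunits did not move as one. RFC4 read 1912 and 1845 with vehicle in A549, where decitabine gave 1440.4 and 1572 at 0.3 µM, 1311 and 1291 at 1 µM and 1110.4 and 1259 at 3 µM, below vehicle at every dose (-0.65, SE 0.0771, adjusted p = 2.73e-06 at 3 µM). Azacitidine 3 µM gave 2152 and 2158 there (0.2, SE 0.0771, adjusted p = 0.0507), just short of the threshold, and it passed under 5 of the alternatives. In H1299 RFC4 read 2984 and 3109 with vehicle, 3238 and 3024 with azacitidine (0.039, SE 0.0771, adjusted p = 0.704) and 2279 and 2338 with decitabine (-0.39, SE 0.0771, adjusted p = 0.000521). RFC2 fell with decitabine in A549, from 837 and 685 to 319.7 and 451 (-0.94, SE 0.187, adjusted p = 0.000806), and its second probe set gave -0.54 (adjusted p = 0.00161). RFC3 fell with decitabine in A549 (-0.47) and with both drugs in H1299 (-0.64 and -0.28), though its second probe set read 0.17 for decitabine in H1299 (adjusted p = 0.403). RFC1, the large subunit, rose with azacitidine in H1299, from 822 and 881 to 1183 and 1182 (0.46, SE 0.115, adjusted p = 0.0019), which its second probe set did not share (0.23, adjusted p = 0.069). For RFC5 the probe sets disagreed. The one used gave -0.65 for azacitidine in H1299, and the others gave -0.48 (adjusted p = 0.00613) and 0.2 (adjusted p = 0.117).

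Of the 9 polymerase and primase genes, 6 fell with decitabine 3 µM in A549 and 6 with azacitidine 3 µM in H1299, and POLA1, PRIM1, POLD2 and POLE2 were among the 6 both times. In these comparisons 10.8% and 21.6% of all genes were called lower. PRIM1, the catalytic primase subunit that starts each new strand, read 1417 and 1170.5 with vehicle in A549. Decitabine gave 1156 and 1097 at 0.3 µM, 825 and 802 at 1 µM and 706 and 696 at 3 µM, and azacitidine gave 1542 and 1731 at 0.3 µM, 1644 and 1649 at 1 µM and 1426 and 1562 at 3 µM. The decitabine arrays lay below vehicle at every dose, and the azacitidine arrays lay above it. At 3 µM the differences were -0.85 (SE 0.0986, adjusted p = 2.38e-06) for decitabine and 0.21 (SE 0.0986, adjusted p = 0.103) for azacitidine. In H1299 PRIM1 fell from 1745 and 1693 to 1165 and 1182 with decitabine (-0.54, SE 0.0986, adjusted p = 0.00028). With azacitidine it read 1448 and 1459 (-0.24, SE 0.0986, adjusted p = 0.0481), a call that did not pass under 10 of 15 alternatives, leaving out any 1 of its 4 arrays among them (adjusted p = 0.0976 to 0.162).

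POLE, the catalytic subunit of the leading strand polymerase, rose with azacitidine in A549, from 323 and 251 to 416 and 422 (0.51, SE 0.144, adjusted p = 0.00783), which did not pass with vehicle replicate 2 left out (0.35, adjusted p = 0.132) or with the ACTB ratio as a covariate (adjusted p = 0.125). Its partner POLE2 read 803 and 690.5 with vehicle and 809 and 812 with azacitidine in that line (0.12, SE 0.0927, adjusted p = 0.346). POLE2 fell with decitabine in A549 to 468 and 523 (-0.56, SE 0.0927, adjusted p = 0.000136) and with azacitidine in H1299 from 1000.5 and 932 to 735 and 756 (-0.36, SE 0.0927, adjusted p = 0.00239), and read 791 and 838 with decitabine in H1299 (-0.24, SE 0.0927, adjusted p = 0.0564). POLD1, the catalytic subunit of the lagging strand polymerase, fell in 1 of the 4 comparisons at 3 µM, azacitidine in H1299, from 345 and 341 to 178 and 175 (-0.85, SE 0.101, adjusted p = 4.06e-07). Its accessory subunit POLD2 fell from 1256 and 1137 to 609 and 802 with decitabine in A549 (-0.75, SE 0.117, adjusted p = 7.46e-05) and from 1996 and 1679 to 1301 and 1148 with azacitidine in H1299 (-0.57, SE 0.117, adjusted p = 0.000296). POLA1, the polymerase that extends primers, fell further with azacitidine at 1 than at 3 µM in H1299, with 475 and 394 against 927 and 877 with vehicle (-1.01, SE 0.125, adjusted p = 2.37e-06), and read 538 and 611 at 3 µM (-0.62, SE 0.125, adjusted p = 0.00023). With decitabine 3 µM POLA1 gave -0.37 in A549 and -0.51 in H1299, both called. Its partner POLA2 was called in 1 of the 12 comparisons with vehicle (-0.48, SE 0.116, adjusted p = 0.00135 for azacitidine 3 µM in H1299). PRIM2, the large primase subunit, fell with decitabine 3 µM in A549 (-0.61, SE 0.164, adjusted p = 0.00868) and read 0.096 in H1299, which was not called. POLD3, another accessory subunit, fell with decitabine 3 µM in both lines (-0.29 in A549 and -0.25 in H1299).

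RPA3, the small subunit of the complex that coats single-stranded DNA, responded to azacitidine in both lines. In H1299 it read 3058 and 3239 with vehicle, and azacitidine gave 2988 and 3251 at 0.3 µM, 2187 and 1856 at 1 µM and 1134 and 1173 at 3 µM, a difference at 3 µM of -1.42 (SE 0.0966, adjusted p = 1.04e-10). All 4 arrays at 1 and 3 µM lay below vehicle, and those at 3 µM below those at 1 µM. In A549 it fell from 3272 and 3548 to 1999 and 2173 (-0.7, SE 0.0966, adjusted p = 7.5e-06). Decitabine 3 µM gave 2860.1 and 2744 in H1299 (-0.17, SE 0.0966, adjusted p = 0.209) and 3406 and 3105 in A549 (-0.067, SE 0.0966, adjusted p = 0.652), and neither passed the test. The larger subunits gave other values. RPA2 passed in none of the 4 comparisons at 3 µM, with differences from -0.14 to 0.2. RPA1 was called higher with decitabine in A549, 3049 and 2449.9 against 2091 and 2384 (0.29, SE 0.0911, adjusted p = 0.0236), but not with vehicle replicate 1 (adjusted p = 0.24) or decitabine replicate 1 (0.402) left out, and its second probe set gave -0.055. RPA1 was called lower with azacitidine 3 µM in H1299 (-0.29), which its second probe set did not share (-0.14, adjusted p = 0.351).

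The genes that process and join lagging strand fragments fell together in H1299. All 3 were called lower with each drug at 1 and at 3 µM there. Of all genes 15.4% and 21.6% were called lower with azacitidine at these doses, and 11.6% and 14.6% with decitabine. LIG1, the replicative DNA ligase, read 383 and 339 with vehicle, 127.7 and 110.1 with azacitidine 3 µM (-1.38, SE 0.127, adjusted p = 9.64e-09) and 259 and 196 with decitabine 3 µM (-0.61, SE 0.127, adjusted p = 0.000936). In A549 LIG1 read 501 and 456 with vehicle, 319.6 and 316 with azacitidine (-0.54, SE 0.127, adjusted p = 0.0018) and 357 and 405 with decitabine (-0.31, SE 0.127, adjusted p = 0.0822), so that azacitidine alone was called there. FEN1, the nuclease that trims the flaps of lagging strand fragments, was called in all 4 comparisons at 3 µM, and it read 2272 and 2056 with vehicle in A549, 1694 and 1725 with azacitidine (-0.33, SE 0.076, adjusted p = 0.00151) and 1646 and 1634 with decitabine (-0.39, SE 0.076, adjusted p = 0.000643). In H1299 FEN1 read 1553 and 1594 with vehicle, 1184 and 1112 with azacitidine (-0.45, SE 0.076, adjusted p = 4.19e-05) and 1099 and 1196 with decitabine (-0.45, SE 0.076, adjusted p = 0.000132), and its second probe set did not pass for azacitidine there (-0.16, adjusted p = 0.16). RNASEH2A, which removes ribonucleotides from DNA, fell in H1299 from 1508 and 1897 to 997 and 1234 already at 0.3 µM azacitidine (-0.59, SE 0.142, adjusted p = 0.0169) and read 903 and 985 at 3 µM (-0.82, SE 0.142, adjusted p = 4.85e-05). With decitabine 3 µM it read 1086 and 999.8 (-0.68, SE 0.142, adjusted p = 0.000961). In A549 it was called with decitabine 3 µM (-0.65) and not with azacitidine (-0.22).

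The chromatin assembly factor CAF-1, which places new histones behind the fork, is represented by its 2 large subunits. CHAF1A read 712 and 626 with vehicle in A549, where decitabine gave 329.7 and 377 at 0.3 µM, 273 and 428 at 1 µM and 282 and 407 at 3 µM. Azacitidine gave 431 and 440.3 at 0.3 µM, 336 and 727 at 1 µM and 571 and 453 at 3 µM, a difference at 3 µM of -0.37 (SE 0.237, adjusted p = 0.234). All 6 decitabine arrays lay below vehicle, while the azacitidine arrays at 1 µM lay on both sides of it. The decitabine difference at 3 µM was -0.91 (SE 0.237, adjusted p = 0.0067), and it was not called with vehicle replicate 1 (adjusted p = 0.0613) or decitabine replicate 1 (0.119) left out. Both other probe sets of CHAF1A were called lower in that comparison (-0.82 and -0.75). In H1299 CHAF1A read 531 and 562 with vehicle, 464 and 496 with azacitidine (-0.18, SE 0.237, adjusted p = 0.561) and 505 and 369 with decitabine (-0.32, SE 0.237, adjusted p = 0.337), although 1 other probe set was called lower with each drug (-0.51 and -0.6). CHAF1B fell in H1299 with both drugs, from 337 and 324 to 157 and 164 with azacitidine (-0.91, SE 0.191, adjusted p = 0.000364) and to 209.5 and 224 with decitabine (-0.55, SE 0.191, adjusted p = 0.0339). In A549 it read 147 and 216 with vehicle and 256 and 216 with azacitidine (0.34, SE 0.191, adjusted p = 0.167).

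TIPIN and TIMELESS form a complex that protects stalled forks, and TIPIN alone was called against vehicle. In A549 it read 1505 and 1604 with vehicle. Azacitidine gave 1623 and 1755 at 0.3 µM, 2288 and 2085 at 1 µM and 2134 and 2278 at 3 µM, all above vehicle, and decitabine gave 1197 and 1139 at 0.3 µM, 957 and 859.8 at 1 µM and 839 and 789 at 3 µM, all below it. At the top dose the differences from vehicle were 0.5 (SE 0.0775, adjusted p = 3.22e-05) for azacitidine and -0.91 (SE 0.0775, adjusted p = 3.62e-08) for decitabine. In H1299 TIPIN read 1920 and 1854 with vehicle, 1646 and 1589 with azacitidine (-0.22, SE 0.0775, adjusted p = 0.0215) and 1753 and 1806 with decitabine (-0.083, SE 0.0775, adjusted p = 0.451). TIMELESS passed in 0 of the 12 comparisons with vehicle, though azacitidine at 3 µM lay above decitabine in A549 by 0.23 (SE 0.0826, adjusted p = 0.0284). It read 1704 and 1879 with vehicle in A549, 1858 and 1942 with azacitidine 3 µM (0.085, SE 0.0826, adjusted p = 0.455) and 1519.7 and 1728 with decitabine 3 µM (-0.14, SE 0.0826, adjusted p = 0.225). In H1299 it read 1541 and 1483 with vehicle, 1519.7 and 1360 with azacitidine (-0.071, SE 0.0826, adjusted p = 0.498) and 1653 and 1669 with decitabine (0.13, SE 0.0826, adjusted p = 0.242), and its second probe set was called lower with azacitidine there (-0.38, adjusted p = 0.0433).

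Among the G1/S regulators, E2F8 had the largest fall of all members in 3 of the 4 comparisons at 3 µM. It read 517 and 484 with vehicle in A549, where azacitidine gave 455 and 510.1 at 0.3 µM, 239.6 and 210.2 at 1 µM and 227 and 211 at 3 µM and decitabine gave 449.5 and 400.3 at 0.3 µM, 255 and 254 at 1 µM and 171 and 214 at 3 µM. In H1299 it read 904 and 809.7 with vehicle, azacitidine gave 752 and 789 at 0.3 µM, 366 and 427 at 1 µM and 250 and 196 at 3 µM, and decitabine gave 627 and 684 at 0.3 µM, 688 and 648 at 1 µM and 623 and 573 at 3 µM. The arrays at 1 and 3 µM lay below vehicle in every case. With azacitidine 3 µM the differences were -1.09 (SE 0.119, adjusted p = 3.98e-07) in A549 and -1.81 (SE 0.119, adjusted p = 6.03e-11) in H1299, and with decitabine 3 µM they were -1.25 (SE 0.119, adjusted p = 1.6e-07) and -0.5 (SE 0.119, adjusted p = 0.00305). The fall with azacitidine in H1299 was 3.5-fold on the scale of signal + 32. E2F1, an activator of the same family, fell with azacitidine 3 µM, to 146 and 102 from 227 and 177 in A549 (-0.59, SE 0.166, adjusted p = 0.00797) and to 160.3 and 136 from 236 and 234 in H1299 (-0.57, SE 0.166, adjusted p = 0.00609). Neither E2F1 call passed with azacitidine replicate 2 of its line left out (adjusted p = 0.14 and 0.0666), and that in A549 did not pass with vehicle replicate 1 left out (0.103) or with the ACTB ratio as a covariate (0.115). With decitabine E2F1 had differences of -0.32 (SE 0.166, adjusted p = 0.171) in A549 and -0.4 (SE 0.166, adjusted p = 0.0775) in H1299. Its second probe set was called lower with azacitidine in both lines and also with decitabine in A549 (-0.46, adjusted p = 0.0448). On the first probe set the drugs were not shown to differ at 3 µM in either line (-0.27, 95% interval -0.62 to 0.076 in A549, and -0.18, 95% interval -0.52 to 0.17 in H1299).

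Cyclins D3, E1 and E2 each had a pattern of their own. CCND3, a cyclin that starts the release of E2F, read 2674 and 3186 with vehicle in A549. Azacitidine gave 3951 and 4004 at 0.3 µM, 2368 and 2513 at 1 µM and 1339.5 and 1459.6 at 3 µM, and decitabine gave 4555 and 4517 at 0.3 µM, 3892 and 4062 at 1 µM and 4158 and 3500.5 at 3 µM. The azacitidine arrays were above vehicle at 0.3 µM and below it at 1 and 3 µM, while the decitabine arrays were above it at every dose. The calls at 0.3 µM were 0.44 (SE 0.0879, adjusted p = 0.00815) for azacitidine and 0.63 (SE 0.0879, adjusted p = 7.53e-05) for decitabine. At the top dose azacitidine gave -1.04 (SE 0.0879, adjusted p = 1.12e-08) and decitabine 0.38 (SE 0.0879, adjusted p = 0.00272), and the latter did not pass with vehicle replicate 1 (adjusted p = 0.0786) or decitabine replicate 1 (0.0838) left out. In H1299 CCND3 fell from 1222 and 1249 to 880.1 and 835 with azacitidine (-0.51, SE 0.0879, adjusted p = 4.4e-05) and read 1125 and 1161 with decitabine (-0.11, SE 0.0879, adjusted p = 0.371).

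CCNE1, the cyclin E1 that drives entry into S phase, rose in H1299 with decitabine at every dose. It read 342 and 379 with vehicle, and decitabine gave 543 and 519 at 0.3 µM, 627 and 530.2 at 1 µM and 612 and 617 at 3 µM, above vehicle at every dose (0.72, SE 0.0973, adjusted p = 7.72e-06 at 3 µM). Azacitidine gave 413 and 448 at 0.3 µM, 637 and 592 at 1 µM and 426 and 418 at 3 µM, with a call at 1 µM (0.72, SE 0.0973, adjusted p = 6.9e-06) and none at 3 µM (0.21, SE 0.0973, adjusted p = 0.0721). In A549 CCNE1 read 442 and 469 with vehicle, 396 and 343 with azacitidine 3 µM (-0.28, SE 0.0973, adjusted p = 0.0259) and 535 and 477 with decitabine 3 µM (0.14, SE 0.0973, adjusted p = 0.307). The azacitidine call in A549 did not pass with vehicle replicate 2 (adjusted p = 0.141) or azacitidine replicate 2 (0.24) left out, or with the ACTB ratio as a covariate (0.173). CCNE2, the second E cyclin, fell with decitabine at every dose in both lines. In H1299 it read 1569 and 1622 with vehicle and 1204 and 1183 at 0.3 µM, 1106 and 1102 at 1 µM and 1106 and 1167 at 3 µM with decitabine (-0.48, SE 0.099, adjusted p = 0.00091 at 3 µM), but 1905 and 1565 with azacitidine 3 µM (0.11, SE 0.099, adjusted p = 0.36). In A549 it went from 456 and 401 to 276 and 316 with decitabine 3 µM (-0.49, SE 0.099, adjusted p = 0.000939) and read 356 and 363 with azacitidine 3 µM (-0.23, SE 0.099, adjusted p = 0.0708). The second CCNE2 probe set passed in neither line for decitabine 3 µM (-0.2, adjusted p = 0.577 in A549, and -0.22, adjusted p = 0.526 in H1299).

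**Figure D4:**
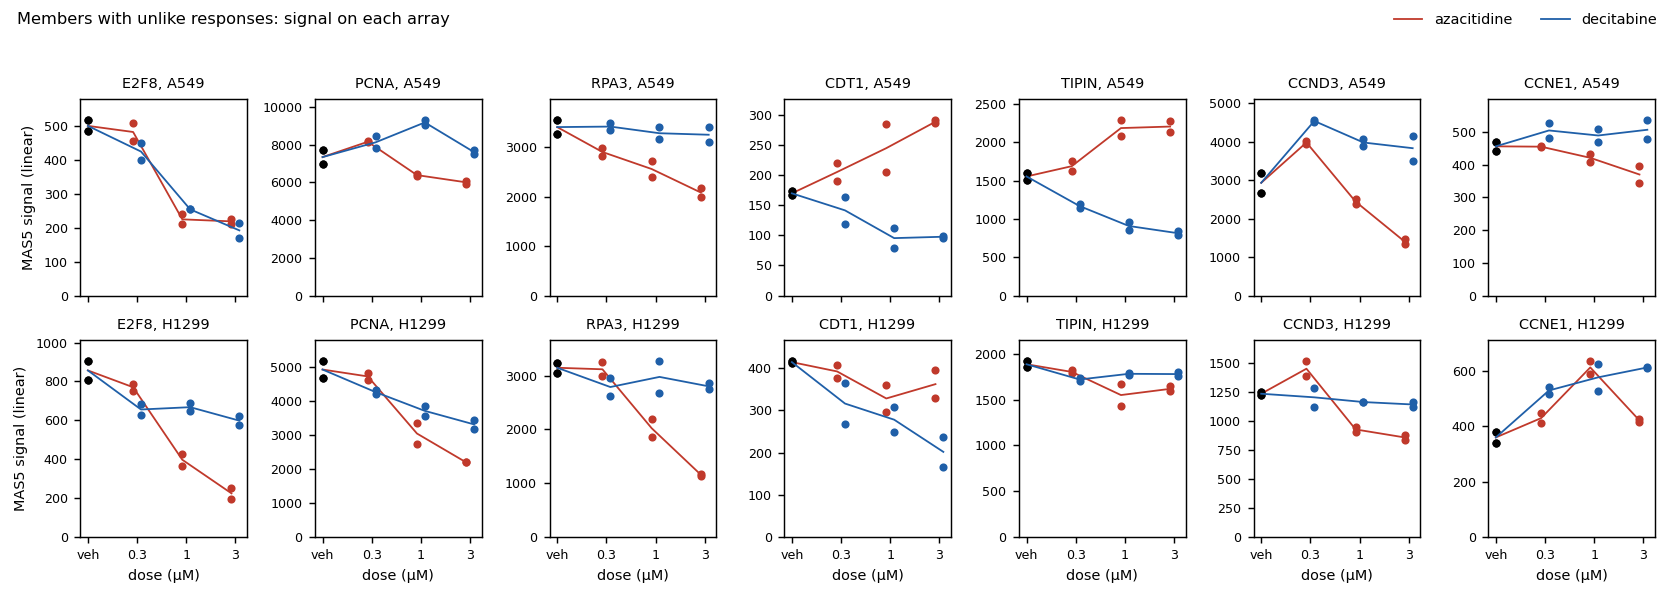
Signal (linear, y axis from 0) of E2F8, PCNA, RPA3, CDT1, TIPIN, CCND3 and CCNE1 on each array against dose in µM, vehicle black, azacitidine red and decitabine blue, A549 above and H1299 below. Points are arrays and lines join group means: in A549 the TIPIN and CDT1 arrays lie above vehicle with azacitidine and below it with decitabine, while CCND3 ends at 1339.5 and 1459.6 with azacitidine 3 µM and 4158 and 3500.5 with decitabine 3 µM.

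The drugs were next set against each other at matched doses, a comparison that does not use the vehicle arrays. Azacitidine and decitabine differ in the sugar: azacitidine keeps the 2' hydroxyl of ribose, which decitabine lacks. There were 6 such pairs, 3 doses in each of 2 lines, and p was adjusted over all genes within each. At 0.3 µM 0 members were lower with azacitidine and 3 higher in A549 (all genes 3.63% and 2.07%), and in H1299 0 were lower and 1 higher (all genes 4.03% and 2.36%). At an unadjusted p below 0.05 in limma, 16 members passed in A549 and 11 in H1299, again without a count for all genes to read them against. At 1 µM A549 had 4 lower and 19 higher (all genes 17.9% and 16.4%), and H1299 had 18 lower and 3 higher (all genes 15% and 19%). At 3 µM A549 had 6 lower and 27 higher (all genes 23.8% and 26.6%), and H1299 had 24 lower and 9 higher (all genes 23.3% and 33%). So from 1 µM most members that differed were higher with azacitidine than with decitabine in A549 and lower in H1299. The number called depended on single arrays. At 3 µM fewer members were called in A549 without decitabine replicate 1, the array labelled as a repeat. The same held at 3 µM in H1299 without azacitidine replicate 2. The 21 calls at 1 µM in H1299 fell to 11 without decitabine replicate 1.

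In A549 the largest differences at 3 µM in favour of azacitidine were 1.4 (SE 0.0775, adjusted p = 1.08e-11) for TIPIN, 1.31 (SE 0.184, adjusted p = 5.79e-06) for CDT1, 1.06 (SE 0.0986, adjusted p = 2.43e-08) for PRIM1, 0.92 (SE 0.0948, adjusted p = 9.69e-08) for MCM2 and 0.87 (SE 0.161, adjusted p = 0.000138) for ORC6. TIPIN and PRIM1 differed already at 0.3 µM (0.52 and 0.52), as did RFC4 (0.37). The largest in favour of decitabine were -1.43 (SE 0.0879, adjusted p = 5.04e-11) for CCND3, -0.63 (SE 0.0966, adjusted p = 1.49e-05) for RPA3, -0.42 (SE 0.0973, adjusted p = 0.0011) for CCNE1, -0.39 (SE 0.0911, adjusted p = 0.00116) for RPA1 and -0.34 (SE 0.0815, adjusted p = 0.00158) for PCNA. For CDT1 the arrays of the 2 drugs did not overlap at any dose. For GINS1 no difference between the drugs passed in A549 (0.04, 95% interval -0.12 to 0.2), nor did one for FEN1 (0.059, 95% interval -0.1 to 0.22), GMNN (-0.1, 95% interval -0.26 to 0.063) or E2F8 (0.17, 95% interval -0.079 to 0.41). For these 4 genes a difference between the drugs was not detected, within those intervals.

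In H1299 at 3 µM azacitidine was lowest relative to decitabine for CDC45 (-1.37, SE 0.218, adjusted p = 1.76e-05), E2F8 (-1.31, SE 0.119, adjusted p = 7.78e-09), RPA3 (-1.26, SE 0.0966, adjusted p = 6.3e-10), LIG1 (-0.77, SE 0.127, adjusted p = 2.57e-05) and DBF4 (-0.68, SE 0.14, adjusted p = 0.000318). Of the MCM2-7 genes 5 were lower with azacitidine (all genes 23.3%), by -0.41 for MCM5 to -0.59 for MCM7, and MCM2 differed by less than its error (0.0033, 95% interval -0.19 to 0.2). The members higher with azacitidine were led by CDT1 (0.77, SE 0.184, adjusted p = 0.00125), ORC6 (0.63, SE 0.161, adjusted p = 0.00217), ORC5 (0.59, SE 0.0972, adjusted p = 2.91e-05), CCNE2 (0.59, SE 0.099, adjusted p = 3.34e-05) and RFC4 (0.43, SE 0.0771, adjusted p = 6.49e-05). For FEN1 the drugs gave a difference of 0.00099 (95% interval -0.16 to 0.16), and for CDC6 0.003 (95% interval -0.24 to 0.25). In both lines 7 members were higher with azacitidine, which is 7 of 27 in A549 and 7 of 9 in H1299. They were CDT1, ORC5, ORC6, RFC4, PRIM1, POLD3 and CCNE2. PCNA, RFC5, RPA1, RPA3, CCNE1 and CCND3 were lower in both, which is 6 of 6 and 6 of 24. The overlap of the lines among all genes was not counted, so neither overlap can be read against it.

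**Figure D5:**
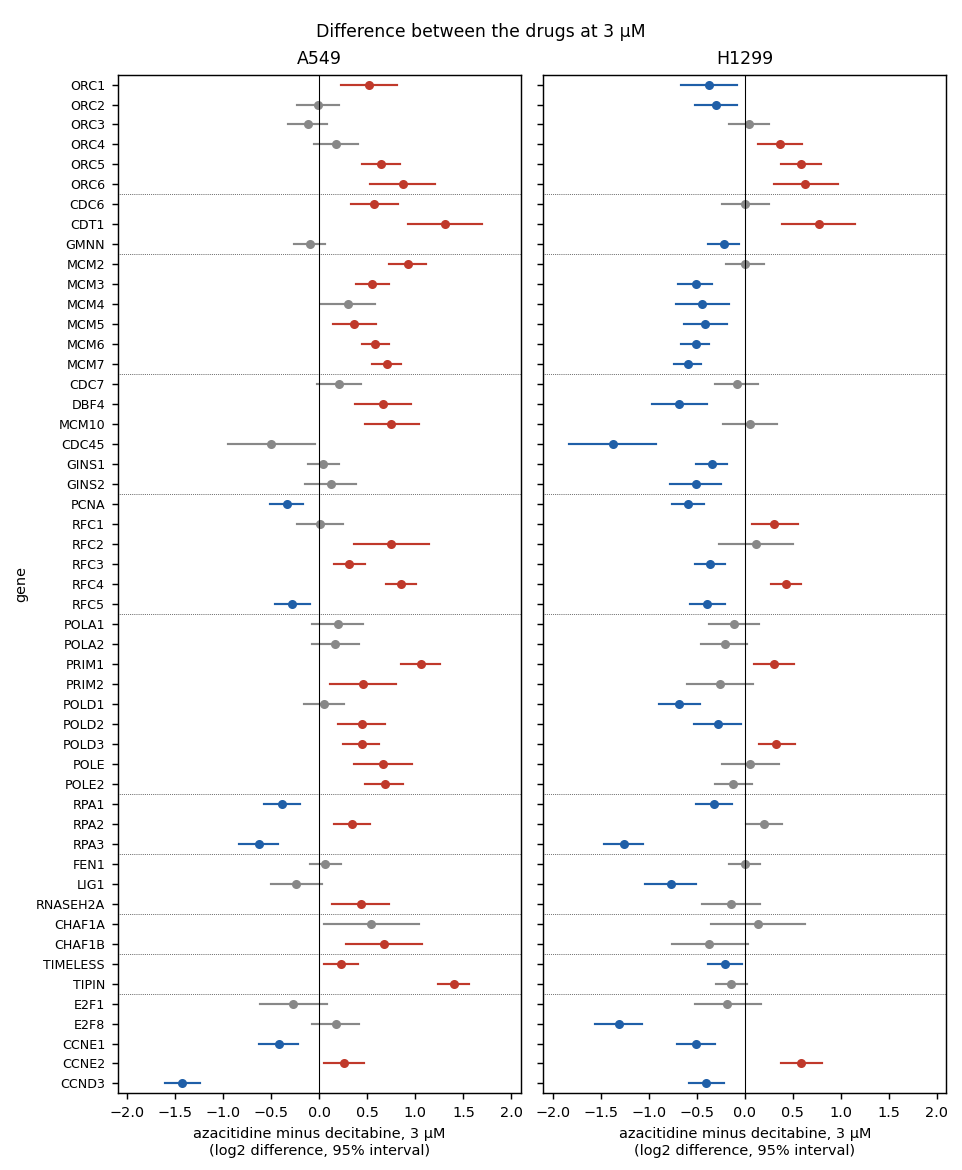
Log2 difference of azacitidine minus decitabine at 3 µM for each of the 51 members in A549 (left) and H1299 (right), with 95% intervals from the limma fit, red where azacitidine was called higher, blue where lower and grey where no call was made. In A549 27 members are red and 6 blue, and in H1299 9 are red and 24 blue.

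The lines were compared by the difference of their responses at 3 µM. With azacitidine 25 members responded lower in H1299 than in A549 and 2 higher (all genes 13.9% and 17.5%). With decitabine 3 responded lower and 8 higher (all genes 9.42% and 7.9%). For azacitidine the 5 largest negative differences were -1.25 (SE 0.27, adjusted p = 0.00124) for CHAF1B, -1.01 (SE 0.308, adjusted p = 0.0162) for CDC45, -0.96 (SE 0.1, adjusted p = 3.44e-07) for MCM7, -0.87 (SE 0.115, adjusted p = 7.29e-06) for PCNA and -0.85 (SE 0.26, adjusted p = 0.0162) for CDT1. The 2 positive ones were 0.53 (SE 0.124, adjusted p = 0.0025) for CCND3 and 0.49 (SE 0.138, adjusted p = 0.00918) for CCNE1. For decitabine the positive ones were led by 0.82 (SE 0.11, adjusted p = 2.19e-05) for TIPIN, 0.76 (SE 0.168, adjusted p = 0.00345) for E2F8, 0.73 (SE 0.191, adjusted p = 0.0109) for MCM10, 0.71 (SE 0.232, adjusted p = 0.0389) for PRIM2 and 0.58 (SE 0.138, adjusted p = 0.00542) for CCNE1, and the negative ones were -0.68 (SE 0.137, adjusted p = 0.00165) for ORC3, -0.62 (SE 0.115, adjusted p = 0.000724) for PCNA and -0.49 (SE 0.124, adjusted p = 0.00855) for CCND3. Where a call was made in 1 line and this test did not pass, as for MCM5 with azacitidine (-0.23, 95% interval -0.54 to 0.084), the lines were not shown to differ. One probe set of RFC5 gave the opposite call in the azacitidine comparison (0.5 against -0.42 for the one used). The count for decitabine ran from 7 without decitabine replicate 1 of A549 to 16 without decitabine replicate 2, against 11 with all arrays.

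Other genes of the pathway were read from a list of 28 tested genes that act in replication or are expressed in S phase. At 3 µM 11 were called lower and 3 higher with azacitidine in A549, 14 and 1 with decitabine in A549, 15 and 3 with azacitidine in H1299, and 6 and 2 with decitabine in H1299. The medians of the list were -0.16, -0.28, -0.34 and -0.16 in that order. Of all genes 16.2% were called lower and 22.1% higher with azacitidine in A549, and 10.8% and 15% with decitabine there. In H1299 the shares were 21.6% and 32.3% with azacitidine and 14.6% and 16.3% with decitabine. HELLS, a chromatin remodeler needed for DNA methylation, had the largest fall of the list with azacitidine in H1299 (-1.46, SE 0.17, adjusted p = 3.1e-07), and the second largest with decitabine in A549 (-0.77, SE 0.17, adjusted p = 0.00202) and in H1299 (-0.6, SE 0.17, adjusted p = 0.00977). RRM2, which makes deoxynucleotides, fell with azacitidine in H1299 (-1.24, SE 0.0727, adjusted p = 9.64e-12), and UNG, which removes uracil from DNA, fell with decitabine in A549 (-0.78, SE 0.113, adjusted p = 2.95e-05). TK1, the S phase thymidine kinase, fell with azacitidine in A549 (-0.92, SE 0.119, adjusted p = 3.32e-06) and in H1299 (-0.99, SE 0.119, adjusted p = 4.95e-07). POLD4, a small polymerase subunit, fell with azacitidine in A549 (-1.09, SE 0.157, adjusted p = 1.34e-05) and rose with azacitidine (0.54, SE 0.157, adjusted p = 0.0063) and decitabine (0.6, SE 0.157, adjusted p = 0.00593) in H1299. RECQL4, a helicase of origin firing, fell with decitabine in H1299 (-0.76, SE 0.218, adjusted p = 0.011). The largest rises otherwise were those of TOP1, a topoisomerase, in A549 (0.28 with azacitidine and 0.4 with decitabine), POLE3 with azacitidine in A549 (0.25), DTL with azacitidine in H1299 (0.36) and SUPT16H, a histone chaperone, with decitabine in H1299 (0.34). Genes of this list are named where they were among the largest changes, and several were called in further comparisons. RRM2 was also lower with azacitidine (-0.52) and decitabine (-0.34) in A549, and DTL was lower with decitabine in A549 (-0.55).

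Of 22 G1 regulators tested, 3 were called lower and 2 higher with azacitidine in A549, 7 and 2 with decitabine in A549, 9 and 6 with azacitidine in H1299, and 4 and 3 with decitabine in H1299, with medians of -0.1, -0.049, -0.19 and -0.11. Among all genes 16.2% were called lower and 22.1% higher with azacitidine in A549, 10.8% and 15% with decitabine there, 21.6% and 32.3% with azacitidine in H1299, and 14.6% and 16.3% with decitabine there. The counts with decitabine in H1299, those lower with azacitidine in A549 and those higher with azacitidine in H1299 are near these shares. Those higher in A549 are below them with either drug. The 7 lower with decitabine in A549 include CDKN2A, which lay above the array median on 0 of 14 A549 arrays and was tested through its level in H1299. CDKN1A, the p21 inhibitor of cyclin kinases, rose with decitabine in A549 (1.61, SE 0.0955, adjusted p = 1.38e-10) and with azacitidine (1.29, SE 0.0955, adjusted p = 3.88e-10) and decitabine (1, SE 0.0955, adjusted p = 6.63e-08) in H1299, and in A549 azacitidine gave a difference of -0.085 (SE 0.0955, adjusted p = 0.524). RBL1, a relative of the retinoblastoma protein, fell with decitabine in A549 (-0.94, SE 0.216, adjusted p = 0.00272) and in H1299 (-0.92, SE 0.216, adjusted p = 0.00258). TFDP1, the partner of E2F, fell with azacitidine in H1299 (-1.08, SE 0.0903, adjusted p = 2.69e-09). It was also called lower with azacitidine in A549 (-0.43) and with decitabine in A549 (-0.66) and H1299 (-0.46). SKP2, which marks p27 for breakdown, fell with azacitidine in A549 (-0.59, SE 0.0901, adjusted p = 2.71e-05) and with decitabine in H1299 (-1.04, SE 0.0901, adjusted p = 1.65e-08). SKP2 was also called lower with decitabine in A549 (-0.42) and with azacitidine in H1299 (-0.81). CDC25A, a phosphatase that activates cyclin kinases, rose with decitabine in H1299 (0.89, SE 0.285, adjusted p = 0.0206) and with azacitidine there (0.81, SE 0.285, adjusted p = 0.0202). The other largest falls were those of CCND1 with azacitidine in A549 (-0.46), MYC with decitabine in A549 (-0.78), CDKN2D with azacitidine in H1299 (-1.04) and RB1 with decitabine in H1299 (-1.07). The other largest rises were those of MYC (0.85) and E2F6 (0.69) with azacitidine in A549, CDKN1C with decitabine in A549 (0.79) and CCND2 with azacitidine in H1299 (1.35). These falls and rises are given where they were among the largest, and some of the genes were called in further comparisons.

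Genes of G2 and mitosis, which act after replication, were called lower most often with azacitidine. Of 30 tested, 30 were called lower with azacitidine 3 µM in H1299 (median -1.17) and 18 with azacitidine in A549, where 1 was higher (median -0.3). With decitabine 12 were lower in A549 (median -0.17), and 8 were lower and 2 higher in H1299 (median -0.026). Among all genes azacitidine 3 µM had 21.6% lower and 32.3% higher in H1299 and 16.2% and 22.1% in A549. Decitabine 3 µM had 10.8% and 15% in A549 and 14.6% and 16.3% in H1299. CCNB1, the mitotic cyclin B1, fell with azacitidine in H1299 (-1.94, SE 0.0683, adjusted p = 3.26e-15), as did KIF20A, a mitotic kinesin (-2.08, SE 0.148, adjusted p = 2.06e-10). The other largest falls were those of PTTG1 (-0.69) and KIF20A (-0.65) with azacitidine in A549, MAD2L1 (-0.79) and BUB1B (-0.74) with decitabine in A549, and PLK1 (-0.57) and CDC25B (-0.52) with decitabine in H1299. KIF2C rose with azacitidine in A549 (0.34) and with decitabine in H1299 (0.3), and NEK2 with decitabine in H1299 (0.42). KIF2C was called lower with decitabine in A549 (-0.51). Several of the genes named here were called in further comparisons. The medians of the replication members in the same order were -0.45, -0.096, -0.39 and -0.25. In A549 azacitidine had the lower median in the G2/M genes and decitabine in the replication genes, a difference between lists that was not tested.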

How the data were processed

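Each RNA sample was hybridised to a one-colour Affymetrix array, and the authors deposited 1 linear signal intensity per probe set and array. Per the submitters' processing notes the intensities came from MAS5, whose version is not given in the sources used here. The 2% trimmed mean of every array was about 500, so no further scaling was applied. The GEO annotation named 1 gene for 19070 probe sets, several for 1043 and none for 2164, and only the first were used.

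Probe sets above the array median on at least 2 arrays were kept (71 of the members' 73), and the one with the highest mean stood for each gene. limma 3.58.1 (R 4.3.3) fitted log2(signal + 32) with 1 mean per group over 28 arrays (14 residual degrees of freedom, eBayes with trend), p was adjusted by Benjamini-Hochberg over 8024 genes, and 20 contrasts were read at 0.05. This scale understates changes of dim genes, and 2 arrays per group limit the precision. The members, lists and tests were chosen with earlier results of these data known. Full values went to the 6 largest falls and 3 largest rises per comparison at 3 µM, to 20 anchor genes, and to the 5 largest differences each way between drugs or lines. In the other lists the 2 largest calls each way were named, and further genes were chosen after their values were seen.

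The fit was tested on simulated data for 8024 genes with 200 changed: for azacitidine 3 µM against vehicle in A549 it found 53% of log2 changes of 0.5 and 90% of changes of 1, and for the line difference with azacitidine 19% and 72%. Correlations between the deviations of same-numbered arrays ran from -0.25 to 0.27 in A549, with 9 of 21 above 0.1. In H1299 they ran from -0.08 to 0.16, with 3 of 21 above 0.1. Some same-numbered arrays thus deviated together weakly, but the signs were mixed. The numbers were not taken to pair samples in the main fit. The alternatives were quantile normalization, median centring, pseudocounts of 1 and 128, no filter or one at the 75th percentile, testing every kept probe set, fitting each line alone, eBayes without trend, a replicate block and each array left out. The ACTB 3'/5' ratio as a covariate was added after seeing the data. Promoter windows came from RefSeq (GRCh38.p14).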

Additional observations from a re-analysis of the deposited data

Results flagged for a closer look

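The 15 results here are those given above as the largest differences between the responses of the 2 lines at 3 µM. All passed the limma test of the difference itself (H1299 minus A549, log2, adjusted over all genes). Passing it was the condition for being listed, so it adds no support. In all, 27 members passed that test with azacitidine and 11 with decitabine. With azacitidine the differences were -0.85 for CDT1, -0.96 for MCM7, -1.01 for CDC45, -0.87 for PCNA, -1.25 for CHAF1B, 0.49 for CCNE1 and 0.53 for CCND3. For CDT1 and MCM7 the A549 arrays with azacitidine lay above vehicle and the H1299 arrays below it. CCNE1 showed the reverse. With decitabine the differences were -0.68 for ORC3, 0.73 for MCM10, -0.62 for PCNA, 0.71 for PRIM2, 0.82 for TIPIN, 0.76 for E2F8, 0.58 for CCNE1 and -0.49 for CCND3. PCNA, CCNE1 and CCND3 differed between the lines with both drugs, with the same sign for PCNA and CCNE1 and opposite signs for CCND3, but the drugs share the vehicle arrays of each line. Groups of 2 arrays are too small for a test of single outlying arrays.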

How the results depend on the processing

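Over 306 alternatives to the 20 counts of called members, 272 stayed within 1.5 times the count, 27 were smaller, 7 larger and 0 reversed. Of 1397 alternatives for single members, 1341 kept direction and side of the threshold, 39 lost the call, 17 gained one and 0 reversed. Quantile normalization gave 2 in place of 1 for the drug comparison at 0.3 µM in H1299. Median centring gave 5 in place of 2 for azacitidine 0.3 µM in A549, 4 in place of 8 and 11 in place of 17 for decitabine 0.3 and 1 µM in H1299, and 5 in place of 3 (A549) and 2 in place of 1 (H1299) for the drugs at 0.3 µM. It moved the median of all genes by 0.1 and 0.13 for azacitidine 0.3 and 1 µM in A549. Its splits, lower and higher, were 3 and 2 for decitabine 0.3 µM in A549, 3 and 1 in H1299, and 2 and 11 for the line difference with decitabine. Azacitidine 0.3 µM in A549 gave 1 with no filter, with every kept probe set tested, with each line fitted alone or with eBayes without trend, and 4 with the ACTB ratio. Fitting the line alone gave 3 in place of 7 for decitabine 0.3 µM in A549, and the ACTB ratio 2 for the drugs at 0.3 µM in H1299.

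Leaving out 1 array gave 0 to 1 for azacitidine 0.3 µM in A549, 10 to 15 for 1 µM, 2 to 6 for decitabine 0.3 µM in A549 and 1 to 2 for azacitidine 0.3 µM in H1299. Decitabine in H1299 gave 3 to 4 at 0.3 µM and 11 to 12 at 1 µM. The drug comparisons gave 2 to 3 at 0.3 µM in A549, 1 to 2 at 0.3 µM in H1299 and 11 to 19 at 1 µM in H1299, and the line difference with decitabine 7 to 16. A lone array left in a group was assumed to vary like the other groups.

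With the replicate block the counts at 3 µM were 22 for azacitidine in A549, 32 for decitabine in A549, 35 for azacitidine in H1299 and 22 for decitabine in H1299, against 21, 32, 35 and 22 without it. Dim signal limits some members: the SE was 0.184 for CDT1 and 0.218 for CDC45, against 0.0696 for MCM6.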
